A study of Gallus gallus with 2 samples.

Results

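The non-dividing radial progenitors of the chick cerebellum at embryonic day 6 (E6) were 77 cells out of 15190 cells in the whole dataset, or 3.09% of the 2488 cells from E6 (exact 95% binomial interval 2.45 to 3.85%). A cell was taken when it held under 15000 transcripts, each counted once by its unique molecular identifier (UMI), and a UMI of at least 2 different genes among SOX2, SOX9, HES5 and SLC1A3. It also had to hold no UMI of 7 mitosis genes (ASPM, CENPE, CENPF, DIAPH3, KIF23, BUB1B and FOXM1) and none of 5 genes of other cell types (SKOR2 of Purkinje neurons, BARHL1 of the granule lineage, PTF1A and PRDM13 of GABAergic precursors, and CDH5 of endothelium). These measured values chose the cells, so the levels of those genes are a description of the choice and not a result.

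Wild-type chicken cerebella were dissected at E6, E7, E8 and E9, pooled and dissociated, and single cells were profiled with the split-pool barcoding kit Evercode WT Mini as a pair of sublibraries. Each stage was therefore 1 pool of tissue, loaded into 3 first-round barcoding wells, and the sources do not say whether the wells held separate embryos. No test between stages or cell sets was possible. Levels are UMIs summed over the cells of a set scaled to CPM, counts per 1e6 UMIs of that set, with exact 95% Poisson intervals that cover counting error only, and the wells and sublibraries are given as technical splits. Genes named for their ratio had to differ in the same direction in every well and both sublibraries. For them, agreement of the splits in direction follows from the choice.

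Radial progenitors line the ventricle of the embryonic hindbrain and stretch a process to the pial surface. They divide at the ventricle, give rise to the neurons of the cerebellum and later to its glia, and hold themselves in the progenitor state through Notch receptors and their HES targets. In the cerebellum they sit next to the isthmus, a signalling centre that releases FGF and WNT proteins, and some of their descendants become Bergmann glia, the radial astrocytes that guide granule cells and wrap Purkinje cell synapses.

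The 77 cells held 290963 UMIs, with a median of 3116 UMIs a cell and a range of 1526 to 14275. Sublibrary 1 gave 38 of them and sublibrary 2 gave 39, while the first-round wells gave 24, 29 and 24. Barcodes found in both sublibraries numbered 896 over all cells. Of the members, 8 had a barcode that also appeared in the other sublibrary, but no barcode was shared by 2 members. Doublets were not called, so the limit of 15000 UMIs and the excluded genes were the guards against them.

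Most cells entered through HES5 or SLC1A3. SLC1A3, a glutamate transporter of radial glia and astrocytes, gave a UMI in 71 of the 77 cells. HES5, a transcriptional repressor switched on by Notch, gave one in 50. The SOX genes, which keep neural cells in the progenitor state (SOX2) or prepare glial fate (SOX9), gave a UMI in 22 cells for SOX2 and in 24 for SOX9. The commonest combination was HES5 with SLC1A3, in 36 cells, followed by SOX9 with SLC1A3 in 13 and SOX2 with SLC1A3 in 10.

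SKOR2-positive E6 cells, taken here as mainly young Purkinje neurons, served as a reference. Among them 1.5% had a SOX2 UMI, 3.96% a SOX9 UMI and 2.73% a HES5 UMI, at a median of 3261 UMIs a cell. SLC1A3 was less selective, with a UMI in 46.3% of those SKOR2-positive cells. At the edge of the rule, 65 of the 77 members had exactly 2 of the markers, 11 had 3 and 1 had all 4. A further 349 E6 cells met every other condition with a single marker, and 707 had no marker. The deepest member had 14275 UMIs, and the shallowest E6 cell beyond the limit had 15055. Only 2 E6 cells failed the rule on that limit alone.

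The same rule took 291 cells at E7 (3.80% of that stage's cells), 127 at E8 (5.13%) and 105 at E9 (4.08%). E6 also held 96 dividing radial progenitors, defined by the same markers and exclusions except that they had a UMI of at least 1 of the 7 mitosis genes. Of all radial progenitors at E6, 55.5% were in that dividing set (47.8 to 63.0%), against 69.6% at E7, 58.6% at E8 and 62.5% at E9. The dividing E6 cells were deeper, at a median of 4171.5 UMIs, and a deeper cell is more likely to show a mitosis UMI. With the rule read from cells thinned to 1500 UMIs, the dividing share was 38.2% at E6 (27.2 to 50.02%) and 45.8%, 44% and 51.6% in the 3 later pools, so the share fell at every stage and the highest stage changed from E7 to E9.

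Mitosis genes that the rule did not use belong to the same program as the 7 excluded ones, so their contrast with the dividing cells follows largely from the choice. The SKOR2-positive cells give a level for a set made up mainly of neurons. Summed over 43 mitosis genes outside the rule, the members held 481 CPM, the SKOR2-positive cells 566 CPM and the dividing progenitors 4003 CPM. The highest SKOR2-positive cell held 11928 CPM of these genes, so some cells of that set may still divide. A UMI of at least 1 of them was present in 58 of 77 members (75.3%), in 72.1% of SKOR2-positive cells and in 92.7% of dividing progenitors. After every cell was thinned to 1500 UMIs, which left out 31 SKOR2-positive and 2 dividing cells but no member, those shares were 49.4%, 46.9% and 88.3%. The members' interval of 37.8 to 61% holds the SKOR2-positive share and lies below the dividing one. The members were filtered on the 7 excluded mitosis genes and the SKOR2-positive cells were not. The match between them is therefore no test of whether the members divide.

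A single gene, CKAP5, a microtubule polymerase of the spindle that neurons also express, carried much of that share. Without it, 29.9% of the thinned members had a mitosis UMI (19.97 to 41.4%), against 24.4% of SKOR2-positive cells and 85.1% of dividing progenitors. CKAP5 itself was seen in 22.1%, 31.2% and 29.8% of thinned cells of the same sets. TOP2A, the topoisomerase that untangles chromosomes from S phase to mitosis, stood at 24.1 CPM in the members and 383 CPM in the dividing progenitors.

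DNA replication genes were read in the same way. The 53 listed genes, among them polymerases, MCM helicases and licensing factors, summed to 1261 CPM in the members, 830 CPM in SKOR2-positive cells and 2457 CPM in the dividing progenitors. The median cell held 581 CPM among the members, below the 733 CPM of SKOR2-positive cells, and 1953 CPM among the dividing progenitors. Thinned to 1500 UMIs, 63.6% of members had such a UMI, against 65.3% of SKOR2-positive cells and 85.1% of dividing progenitors. Cell by cell, 16 of 77 members (20.8%, interval 12.4 to 31.5%) lay above the 90th percentile of SKOR2-positive cells for this list, compared with 56 of 96 dividing cells (58.3%). By construction 10.1% of the SKOR2-positive cells also lay above it, so the limit is no boundary between cycling and resting cells.

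**Figure D1:**
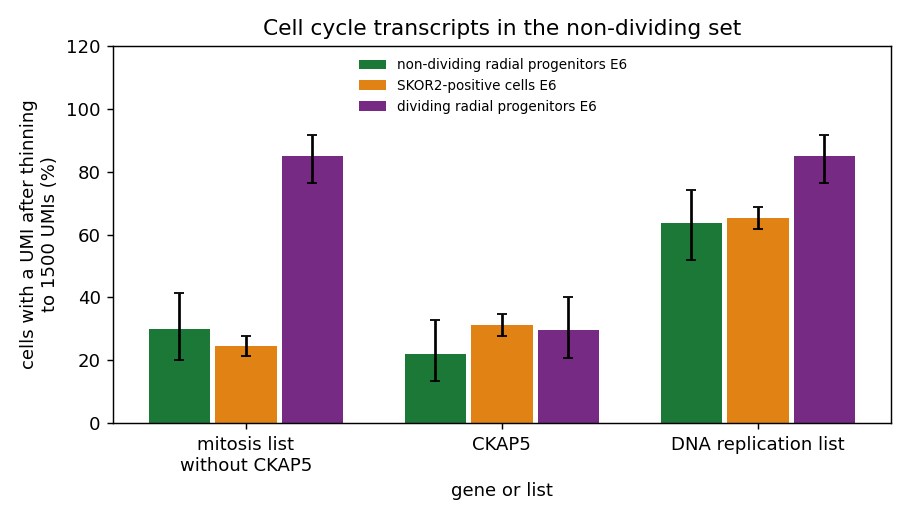
Share of cells (%) with at least 1 UMI of a gene or list after thinning to 1500 UMIs, in the 77 non-dividing radial progenitors, the SKOR2-positive cells and the dividing radial progenitors of E6. Bars start at 0 and error bars are exact 95% binomial intervals. Without CKAP5 the members (29.9%) sit near the SKOR2-positive cells (24.4%) and far below the dividing cells (85.1%).

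Cyclins and their inhibitors of the G1 phase gave further values. CCND1 and CCND2, which drive the passage from G1 into S phase, stood at 158 and 141 CPM in the members and at 247 and 126 CPM in the dividing progenitors. CDKN1B, an inhibitor that holds cells in G1, stood at 41.2 CPM in the members (interval 21.3 to 72.0, 12 UMIs) and at 9.88 CPM in the dividing progenitors (interval 3.21 to 23.0, 5 UMIs). The intervals overlap, which alone does not show that the levels are alike. CDKN1B fell short of the 100 UMIs required for a ratio to be counted. PCNA, the sliding clamp of DNA synthesis, gave 2 UMIs in the members and 9 in the dividing set, too few to compare.

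Markers of most unrelated cell types were scarce in the members. The midbrain neuron list was an exception. It holds PAX7, also a factor of dorsal progenitors, which gave 260 UMIs in 65 of the 77 members. Erythroid genes summed to 0 CPM, microglia and macrophage genes to 6.87 CPM and oligodendrocyte lineage genes to 17.2 CPM. Endothelial genes summed to 79.0 CPM, nearly all of it PECAM1 at 61.9 CPM. Mural and mesenchymal genes summed to 75.6 CPM, of which the collagen gene COL3A1 made up 55.0 CPM (16 UMIs in 10 cells), higher than the 13.8 CPM of other E6 cells. The part of such cells in the results was not tested. The proneural factors NEUROG1 and NEUROG2 gave 0 UMIs, where 3 UMIs over the set would have been 10.3 CPM.

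Neuronal transcripts were present, and they were concentrated in a few cells. A list of 22 neurogenic and newborn neuron factors, including EBF1, EBF2, EBF3, MYT1 and MYT1L, was summed in each cell. Its 10th percentile among SKOR2-positive E6 cells was 8890 CPM. Of the 77 members, 10 reached that level (13.0%, interval 6.41 to 22.6%), and the nearest values on either side were 7806 and 10168 CPM. The cells came from all 3 wells (2, 3 and 5 cells) and both sublibraries (4 and 6 cells), and they held 14.8% of the members' UMIs. These cells, called neuron-rich here, were chosen after their values were seen, and their level of the listed factors is a description only.

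The neuron-rich members also had less of the radial glia program, which did not choose them beyond the rule markers. Summed over 43 radial glia and astroglia genes, they had a median of 4917 CPM a cell (3541 to 13655), whereas the other 67 members had a median of 13162 CPM (1517 to 26575). FABP7, the brain lipid-binding protein of radial glia, gave 1 UMI in the 10 cells and 62 UMIs in the other 67. NEBL, an actin-binding protein of the nebulin family, stood at 69.7 CPM against 783 CPM, the growth factor PTN at 186 against 1388 CPM, and NOTCH1 at 255 against 1041 CPM. HES5 was detected in 3 of the 10 neuron-rich cells and in 47 of the other 67, while SOX9 was detected in 7 of 10 and 17 of 67. HES5 and SOX9 are rule markers, and a member without HES5 had to enter through other markers. Their opposite contrasts can therefore follow from the rule and are a description only. The ranges of the glial list overlap, so the low glial level was not shared by every neuron-rich cell.

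PAX2, the factor of cerebellar GABAergic interneuron precursors, stood at 1092 CPM (47 UMIs in 5 of 10 cells) against 52.4 CPM (13 UMIs in 5 of 67 cells). The GABA-synthesising enzyme GAD2 stood at 302 CPM (13 UMIs in 3 cells) against 28.2 CPM. LBX1 and SLC32A1 of the same interneuron list gave 0 UMIs in both groups. Marker lists of other neurons were higher too. The Purkinje list, which holds EBF2 of the choosing list, summed to 5760 against 1856 CPM. The glutamatergic nuclear list summed to 1254 against 299 CPM. In the neuron-rich cells that sum came from MEIS2 (46 UMIs) and SLC17A6 (8 UMIs) alone, and the other genes of the list gave none. The neuron-rich cells are therefore not given 1 neuronal type. CSMD1 and GRIK2, a synaptic membrane protein and a kainate receptor subunit, reached 3135 and 2996 CPM against 96.8 and 117 CPM. Their median depth was 3842.5 UMIs and their deepest cell had 6884 UMIs, against a median of 3026 in the other members. The part of doublets in these values was not tested.

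**Figure D2:**
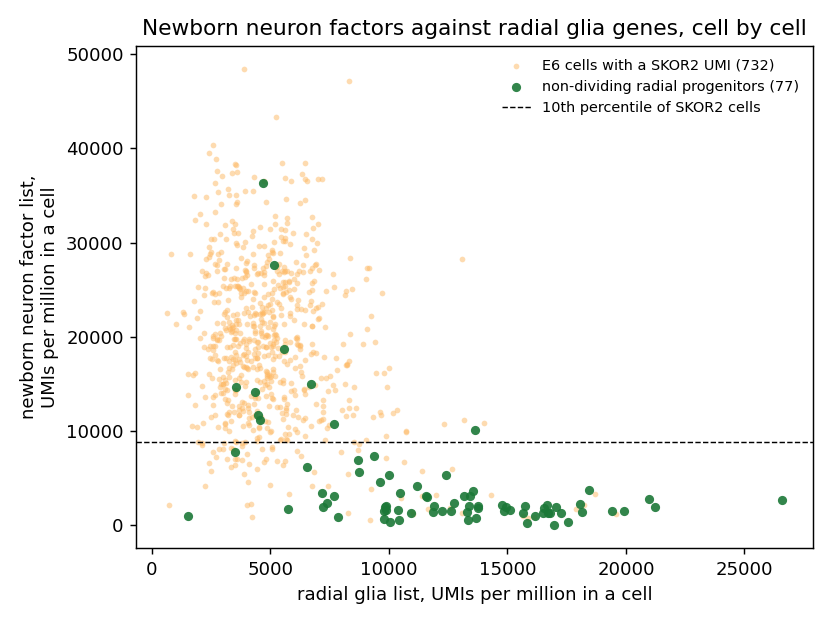
Each point is 1 E6 cell, with its radial glia list on the x axis and its newborn neuron factor list on the y axis, both in CPM. Of the 77 members (green), 10 lie at or above the dashed 10th percentile of SKOR2-positive cells (orange, 8890 CPM), most of them at the low end of the radial glia list.

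Neuron-rich cells by the same limit made up 16.2% of the corresponding set at E7 (47 of 291), 8.66% at E8 (11 of 127) and 3.81% at E9 (4 of 105). Among the dividing E6 progenitors they were 5 of 96. Each comparison was also made without them, as an alternative added after the data were seen, and those values are given where they matter. Against the other E6 cells, they were left out of the members only, and the other cells stayed whole.

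Against all other E6 cells under 15000 UMIs, 2379 cells of which 1512 are neuron-rich by the same limit and 96 are the dividing progenitors, the members were compared gene by gene. Of 7621 genes with at least 100 UMIs in both sets together, 16.7% were at least 2-fold apart, 7.7% higher in the members and 9.03% lower. The rule separated these sets by progenitor markers, so the counts that follow describe the cells and support nothing. Of 23 radial glia and astroglia genes with enough UMIs, 11 were at least 2-fold higher and 1 was lower, with a median log2 ratio of 0.99 against 0.02 over all genes tested.

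PTPRZ1 (ID ENSGALG00010001248), a receptor phosphatase of radial glia that binds pleiotrophin, stood at 1539, 1646 and 1759 CPM in the 3 wells and at 376 CPM in the other cells. Every well lay far above that background, with a log2 ratio of 2.13. PTN, the gene of pleiotrophin itself, stood at 1373, 1431 and 711 CPM against 453 CPM. LRIG1, which restrains growth factor receptors in stem cells, stood at 462, 769 and 409.5 CPM against 102 CPM (log2 ratio 2.52). These genes lay above the other E6 cells in every well, which the naming rule required of PTN and LRIG1. The third well was lower than the other 2 for PTN. The dividing progenitors also held PTPRZ1 and PTN, at 1124 and 1625 CPM, so neither gene is particular to the non-dividing cells. LRIG1 is set against the dividing cells below.

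The intermediate filament genes of radial glia were less distinctive. VIM and NES stood at 168 and 223 CPM in the members and at 76.2 and 99.6 CPM in the other cells. TNC, a matrix protein of glial cells, stood at 715 against 360.3 CPM. GLUL, the glutamine synthetase of mature astroglia, gave 1 UMI in the members. The exception in the list was NCAN, a chondroitin sulfate proteoglycan, which was lower in the members at 55.0 against 167 CPM.

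Among the Notch genes, a receptor and a ligand were both higher. The receptor NOTCH1 stood at 924, 985 and 831 CPM against 265 CPM, a log2 ratio of 1.80, and the wells varied little. The ligand DLL1, which newborn neurons display to keep their neighbours in the progenitor state, stood at 141, 146 and 265 CPM against 52.9 CPM (log2 ratio 1.76). Of its 52 UMIs, 20 came from the 10 neuron-rich cells, and without those cells its log2 ratio was 1.29. The ligand JAG1 did not separate the sets, at 89.4 and 92.1 CPM. HES1 gave no UMI in the members. In all, 4 of 18 Notch genes were at least 2-fold higher and 0 lower.

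Receptors of FGF signals were among the higher genes. Of 18 FGF pathway genes, 7 were at least 2-fold higher, among them the receptors FGFR1, FGFR2 and FGFR3 and the feedback inhibitor SPRY2, and 2 (FLRT2 and FGF13) were lower. The log2 ratio of FGF13 was -1.03, and -0.52 without sublibrary 2. FGFR3 stood at 179.6, 500.1 and 145 CPM in the wells and 80.7 CPM in the other cells, and FGFR2 at 218, 554 and 169 CPM against 84.0 CPM. The second well was the highest for both receptors, and every well lay above the other cells. The ligand FGF8 itself gave no UMI in the members.

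Hedgehog genes that were higher included a co-receptor and a transcription factor. BOC, a co-receptor for Sonic hedgehog, stood at 1167, 1708 and 1361 CPM against 406 CPM, and GLI3, the main repressor among the pathway's transcription factors, at 2117, 2146 and 1855 CPM against 767 CPM. The receptor and target gene PTCH1 stood at 265 against 84.2 CPM. GLI1, a direct target whose level is used as a readout of signalling, gave 1 UMI. Of 14 genes, 5 were at least 2-fold higher and 1, SCUBE1, was lower.

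The WNT genes that were higher included receptors and an intracellular component. LRP5, a co-receptor for WNT ligands, stood at 552, 677 and 494 CPM against 137 CPM. LGR5, a receptor for R-spondins and itself a WNT target in many stem cells, stood at 154, 100.02 and 446 CPM against 39.5 CPM. DAAM2, a formin-family protein that promotes WNT receptor signalling in the developing spinal cord of mouse and chick, stood at 500.3, 600.1 and 253 CPM against 67.2 CPM. LGR5 was uneven, with the third well far above the other two, and 41 of its 62 UMIs came from 5 cells. The secreted ligands WNT3A and RSPO3, products of the rhombic lip and roof plate, were lower in the members. WNT3A gave 1 UMI in the members, and RSPO3 gave 6 UMIs in 4 cells. The log2 ratio of WNT3A was -2.70, and -0.21 without sublibrary 2, where the members held 0 UMIs and the floor of 3 UMIs applied. Of 23 listed WNT genes, which do not include DAAM2, 8 were at least 2-fold higher and 2 lower.

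Transcription factors of dorsal progenitors were among the higher ones. PAX3 and PAX7, paired-box factors of dorsal neural progenitors, stood at 945 and 894 CPM against 347 and 299.8 CPM. SOX5, RFX4 and NFIA stood at 2169, 1076 and 4148 CPM against 589, 301 and 2068 CPM. EN1 and EN2, the engrailed genes of the midbrain and cerebellar territory, were low everywhere, with 7 and 17 UMIs in the members. OTX2 and GBX2, which mark the midbrain and hindbrain sides of the isthmus, gave no UMI. Of 28 progenitor transcription factors, 9 were at least 2-fold higher and 5 lower.

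Further genes set the members apart from other E6 cells by the widest ratios. COL25A1, a transmembrane collagen, reached a log2 ratio of 2.99, but its 32 UMIs came from 9 cells, and 27 of them from 5 cells. NEBL followed at 2.84, DAAM2 at 2.82 and VSTM4, a transmembrane immunoglobulin protein, at 2.72. FAT4, a giant cadherin of neural progenitors, stood at 385, 800.1 and 1036 CPM against 128 CPM. PRDM16 and BMPR1B, a chromatin regulator of radial glia and a BMP receptor, had log2 ratios of 2.49 and 2.38. CYP26B1, which degrades retinoic acid, stood at 251 against 57.2 CPM. Of 35 matrix and adhesion genes, 8 were higher, including ITGB8, LAMA1, FBN3 and NECTIN3, and 3 were lower (CDH11, NID1 and FN1).

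Neuronal genes were low. Of 25 tested, 0 were at least 2-fold higher and 13 were lower, with a median log2 ratio of -1.10. ROBO3, a guidance receptor of axons that cross the midline, gave 4 UMIs in the members (13.7 CPM) against 247 CPM. CNTN2, STMN2 and EBF3 stood at 37.8, 75.6 and 574 CPM against 423, 391 and 2971 CPM. The log2 ratio of EBF3 moved from -2.37 to -3.88 without the neuron-rich members, and that of MYT1L from -2.04 to -3.84. Both genes belong to the list that chose those cells, so these moves follow from the choice. TUBB3, a tubulin used as a pan-neuronal marker, did not separate the sets at 58.4 and 50.8 CPM.

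**Figure D3:**
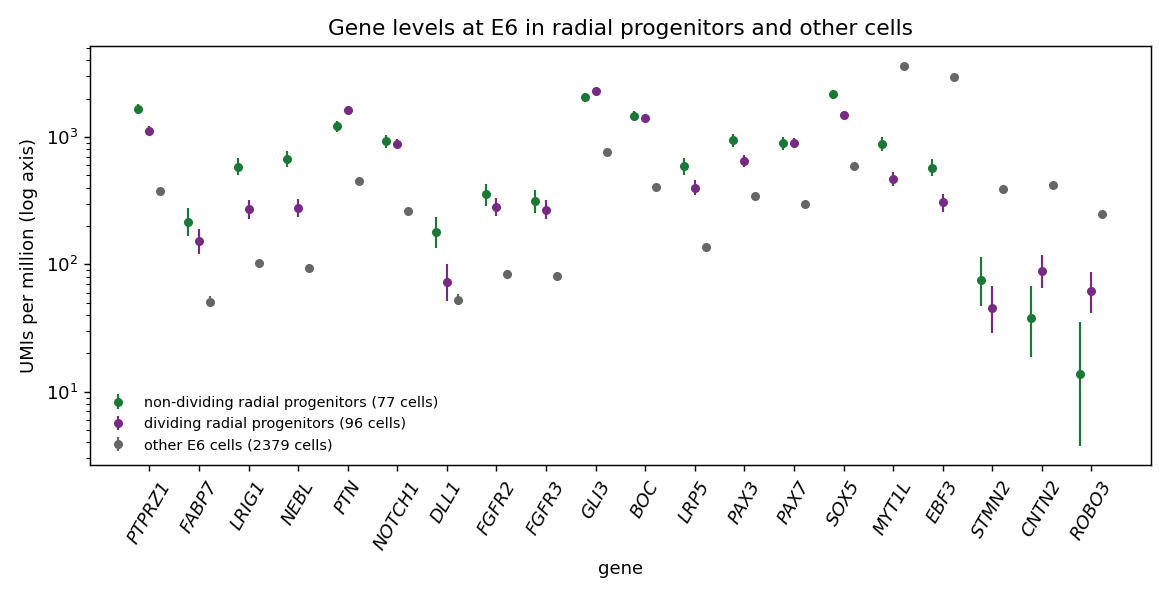
Levels at E6 of 20 genes in CPM (log axis) in the 77 non-dividing radial progenitors, the 96 dividing ones and the 2379 other E6 cells, which include the dividing ones. Points are sums over cells and bars exact 95% Poisson intervals. Genes such as NOTCH1 and GLI3 lie close together in both progenitor sets and above the other cells, and neuronal genes such as MYT1L and ROBO3 lie below them. PTPRZ1, LRIG1 and NEBL lie higher in the non-dividing set than in the dividing one.

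The nearest cells were the dividing radial progenitors of the same stage. Of 1750 genes with enough UMIs, 62 were at least 2-fold apart (3.54%), 30 higher in the non-dividing cells (1.71%) and 32 lower (1.83%). Mitosis genes are set by the rule or belong to the same program, so their contrast describes the split. TOP2A, INCENP and SMC4, whose products organise mitotic chromosomes, had log2 ratios of -3.99, -4.92 and -2.61. BRCA1, a DNA repair factor, and PRIM2, a primase subunit, had ratios of -2.38 and -1.31, and NASP, a histone chaperone of S phase, one of -1.30. LBR, a receptor of the nuclear lamina, stood at 64.1, 108 and 48.2 CPM in the wells of the members and 227 CPM in the dividing cells.

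Few signalling genes were 2-fold apart between the progenitor sets. None of 9 Notch genes, 8 FGF genes, 6 Hedgehog genes or 15 progenitor transcription factors with enough UMIs was 2-fold apart, which with these list sizes is near the 3.54% over all genes. DLL1 fell short of the 100 UMIs required and is not among the 9. It stood at 179 CPM in the members, 129 CPM in those that were not neuron-rich and 73.1 CPM in the dividing cells. Of 12 listed WNT genes, LGR5 was higher and NKD1 lower, and of 20 guidance genes PLXNA4, EFNB1 and DAB1 were higher and SLIT2 lower. DAAM2, which is not on the WNT list, is given below. NOTCH1 stood at 925 and 887 CPM, GLI3 at 2055 and 2291 CPM, and PAX7 at 894 and 897 CPM. Their log2 ratios had counting intervals of -0.16 to 0.28, -0.30 to -0.01 and -0.23 to 0.22. Of 16 radial glia genes, 1 was higher (LRIG1) and 1 lower (PROM1, a membrane protein of progenitor cells).

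The genes that were higher in the non-dividing cells fell into groups that differed in which cells carried them. CSMD1 led the list. It stood at 359, 908 and 157 CPM in the wells of the members and 83 CPM in the dividing cells, a log2 ratio of 2.72 (2.22 to 3.25), and the 3 wells differed widely. Of its 159 UMIs, 136 came from 5 cells and 135 from the 10 neuron-rich cells, and without those cells its ratio was 0.26. GRIK2 went from 2.02 to 0.09 and MYT1, a zinc finger factor of newborn neurons, from 1.10 to 0.08. EBF1 went from 1.02 to 0.27, NHS, the gene of an actin regulator, from 1.85 to 0.84, and PCLO, a scaffold of presynaptic terminals, from 1.34 to 0.73. None of these 6 genes remained 2-fold apart without the neuron-rich cells. MYT1 and EBF1 belong to the list that chose those cells, so their drop follows largely from the choice. CSMD1 also dropped to 0.99 without sublibrary 2, and MYT1 turned to -0.22 without the third well.

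Other genes did not rest on those cells. DAAM2 (chromosome 3, 28421135 to 28628458, GRCg7b) stood at 500.3, 600.1 and 253 CPM in the wells and at 465 and 483 CPM in the sublibraries, against 178 CPM in the dividing cells. Each well lay above the dividing level, as the naming rule required. Its log2 ratio was 1.42 (1.02 to 1.82), 1.52 without the neuron-rich cells and 0.78 without the second well of both sets. NEBL (chromosome 2, 18032990 to 18280727 in the same build) stood at 577, 654 and 807 CPM against 278 CPM, with a ratio of 1.28 (0.96 to 1.60) and of 1.42 without those cells. It was 0.91 without the second well and 0.83 without sublibrary 1, so both genes kept their direction but not the 2-fold difference.

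LRIG1 (chromosome 12, 14629825 to 14710908) stood at 462, 769 and 409.5 CPM against 273 CPM, with a ratio of 1.10 (0.77 to 1.43), and its UMIs were spread over 51 of the 77 cells. Without the second well it was 0.59. MMP17, a membrane-anchored metalloproteinase, stood at 423, 554 and 277 CPM against 203 CPM (1.11, and 0.50 without the second well). EFNB1, a ligand of Eph receptors, stood at 192, 231 and 241 CPM against 101 CPM (1.15, and 0.78 without sublibrary 2), and its wells were nearly level. GPC6, a heparan sulfate proteoglycan, had a ratio of 1.5, but 46 of its 73 UMIs came from 5 cells, and it was 0.97 without sublibrary 2. LGR5 (chromosome 1, 36359750 to 36445717) had a ratio of 1.14 (0.57 to 1.71), and its first 2 wells, at 154 CPM and below, lay near the dividing level of 96.8 CPM. Without the third well it was 0.55. In all, 15 of the 26 named genes that were 2-fold apart from the dividing cells fell short of 2-fold when 1 well or 1 sublibrary was left out.

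Lower genes outside the cell cycle were less even. PLSCR5, a scramblase-like membrane protein, had a ratio of -2.62, with -1.52 and -5.23 in the sublibraries. NKD1, a feedback inhibitor of WNT signalling, had -1.17 with -2.10 and -0.17, and SEMA3C, a secreted guidance protein, -1.30 with -0.66 and -1.77. Each of these pairs differs widely between sublibraries. The SLIT2 ratio of -1.01 rested on wells at 949, 469 and 108 CPM, and 105 of its 144 UMIs came from 5 cells.

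The contrast was then read in the pools of the later stages, whose cells the E6 choice did not use. Of the genes tested there, 4.07% were 2-fold apart between non-dividing and dividing cells at E7, 2.95% at E8 and 3.5% at E9. The share higher in the non-dividing cells was 0.768%, 0.306% and 0.536% at these stages, and the share lower was 3.3%, 2.64% and 2.97%. The cell cycle genes were lower at every stage, which follows largely from that split. TOP2A stood at -3.79, -3.86 and -3.21 and LBR at -1.32, -1.18 and -1.70. Of the 10 higher genes plotted, GPC6 at E7 was the only one 2-fold higher at a later stage. These 10 genes were picked among those 2-fold higher at E6, so smaller later ratios can follow from the choice. DAAM2 had ratios of 0.62, 0.64 and -0.02, NEBL of 0.59, 0.25 and 0.40, and LRIG1 of 0.38, 0.08 and 0.39. GPC6 had 1.04, 0.18 and -0.53. LGR5 had 0.73, 0.61 and -1.82 on few UMIs (5 at E9 in the non-dividing set). The difference between stages in these ratios was not tested.

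**Figure D4:**
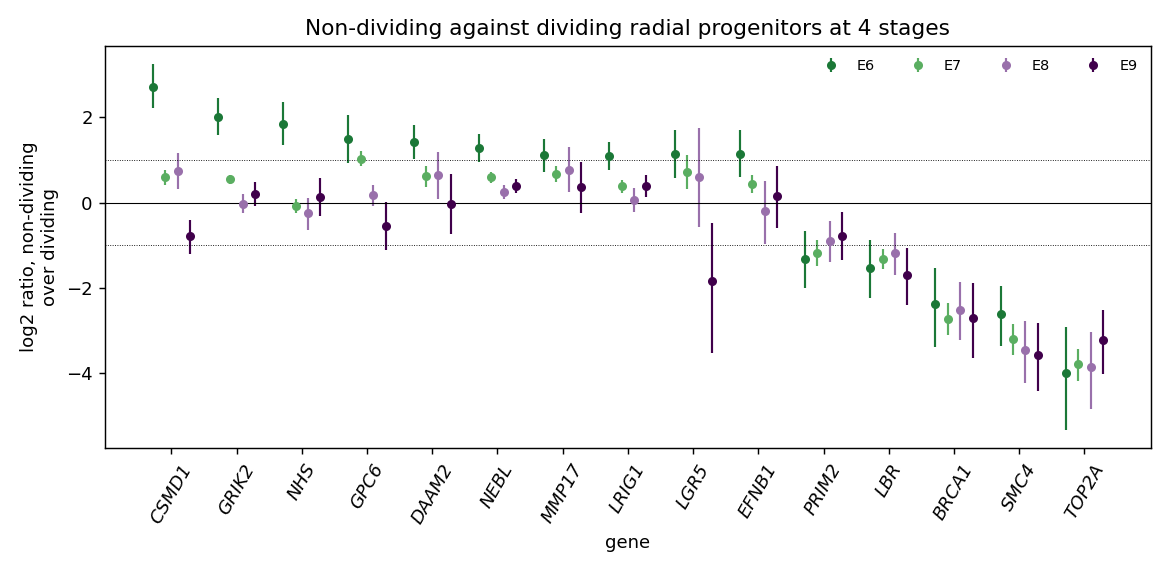
Log2 ratio of non-dividing over dividing radial progenitors at E6, E7, E8 and E9 for 15 genes, with 95% counting intervals. Dotted lines mark 2-fold. At E6 the first 10 genes lie above the upper line and at E9 none of them does, while TOP2A, SMC4 and BRCA1 lie below the lower line at all 4 stages.

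The same rule was applied at E8 and E9. Transcripts of the W chromosome, which female birds alone carry, were summed over HINTW, SPIN1L, UBAP2L2 and HNRNPKL only. They gave 0 UMIs at E6 and 1 at E8 in these cells, but 144 CPM at E7 and 50.1 CPM at E9. E6 and E8 were thus alike in these W transcripts, and E7 and E9 stood apart from them. Effects of age and of the pool cannot be told apart. Of 1587 genes tested, 13.2% were at least 2-fold apart between E8 and E6 (8.25% higher at E8 and 4.91% lower). Between E9 and E6 it was 15.8% of 1364 genes (8.58% higher and 7.18% lower). Both comparisons use the same E6 cells.

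THRB (chromosome 2, 37164426 to 37332785), a thyroid hormone receptor, gave 1 UMI in the E6 cells. It stood at 197, 175 and 114 CPM in the wells of E7, at 400.2, 399.9 and 266 CPM at E8 and at 128, 264 and 203 CPM at E9. Every well of the later stages lay above every well of E6. For E8 and E6, the naming rule already required each well to differ in that direction from the other pooled set. The log2 ratio of E8 over E6 was 6.68, with a counting interval of 4.18 to 11.99. ACAN, the core protein of a large chondroitin sulfate proteoglycan, gave 0 UMIs at E6, 18.3 CPM at E7, 223 CPM at E8 and 427 CPM at E9. Set against 3 UMIs over the E6 set, that was at least 21.7-fold higher at E8 and at least 41.5-fold higher at E9.

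Several radial glia genes were higher in the later pools. PTN (chromosome 1, 57712761 to 57782583) stood at 1373, 1431 and 711 CPM in the E6 wells and at 3569, 5075 and 4902 CPM in the E8 wells (log2 ratio 1.93, 1.77 to 2.10). Its level had already reached 4910.3 CPM at E7. PTPRZ1 stood at 1649.7, 2393, 4103 and 3947 CPM from E6 to E9. SLC4A4, a bicarbonate cotransporter of astroglia, stood at 113, 132, 290.4 and 457 CPM, and its log2 ratio at E8 of 1.36 was 0.86 without sublibrary 1. The neurotrophin receptor NTRK2 went from 289 CPM at E6 to 605 at E8 and 672 at E9. Of 16 radial glia genes, 5 were at least 2-fold higher at E8 and 0 lower, with a median log2 ratio of 0.11 against -0.04 over all genes. At E9 it was 4 of 14 and 0 lower, with a median of 0.28 against -0.10.

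Membrane and secreted protein genes joined them. ATP2B2, a plasma membrane calcium pump, stood at 65.3 CPM at E6 and 1041 CPM at E9, and PCDH15, a cadherin-like adhesion protein, at 24.1 and 572 CPM. SEMA3E, a secreted guidance protein, gave 2 UMIs at E6 and 139 at E8, a log2 ratio of 5.50 (3.62 to 8.56). RELN, the secreted protein that positions Purkinje cells, stood at 89.8, 53.9 and 72.3 CPM in the E6 wells and 675, 382 and 609 CPM in the E8 wells. The wells did not overlap, but the naming rule had asked for wells that agree in direction.

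Transcription factors moved both ways. SOX6 (chromosome 5, 10772986 to 11177732), a SoxD factor of glial precursors, stood at 395, 592, 1271 and 1288 CPM from E6 to E9. HMGA2, a chromatin protein of stem cells, stood at 227, 527, 889 and 616 CPM. PAX3 went the other way, from 911, 877 and 1084 CPM in the E6 wells to 375, 323 and 241 CPM in the E8 wells, with a log2 ratio of -1.62. PAX5, a factor of the isthmic territory, stood at 601, 378, 217 and 94.3 CPM. Of 15 such genes, 2 were higher and 2 lower at E8, and 2 higher and 3 lower at E9. Over all genes tested, 8.25% were higher and 4.91% lower at E8, and 8.58% and 7.18% at E9. Counts this small are not read as a result about the list.

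Some receptors and components of FGF and WNT signalling were lower in the later pools. FGFR3 (chromosome 4, 82918126 to 82970476) stood at 179.6, 500.1 and 145 CPM in the E6 wells and 125, 82.3 and 44.4 CPM in the E8 wells. The groups do not overlap, although the second E6 well was far above the rest. Its log2 ratio was -1.96 (-2.56 to -1.39) at E8 and -2.64 at E9. LRP5 stood at 552, 677 and 494 CPM at E6 and 192, 241 and 139.5 CPM at E8 (-1.62), and DAAM2 at 500.3, 600.1 and 253 and 150.1, 100 and 114 CPM (-2.00). LGR5 went from 213 CPM at E6 to 54.8, 29.0 and 14.7 CPM, and AXIN2, a target and inhibitor of WNT signalling, from 179 to 103, 46.9 and 56.0 CPM. By list, 1 of 7 FGF genes (FGFR3) and 1 of 8 WNT genes (LRP5) were at least 2-fold lower at E8, so the named genes do not speak for their pathways. DAAM2 is not on the WNT list.

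Of the Hedgehog genes, BOC went from 1167, 1708 and 1361 CPM in the E6 wells to 525, 806 and 767 CPM in the E8 wells, a log2 ratio of -1.03 that was -0.66 without sublibrary 2. PTCH1 stood at 265 CPM at E6, and at 248, 592 and 481 CPM in the later pools. HHIP, a decoy receptor that hedgehog signalling induces, gave 1 UMI at E6 and stood at 66.2, 149.7 and 162 CPM afterwards. The level of PTCH1 was thus above that of E6 at E8 and E9 but not at E7, and the level of HHIP in all 3 later pools. PTCH1 lies on the Z chromosome. The W genes named above gave 0 UMIs at E6 and 1 at E8, while E7 and E9 held more. For PTCH1, effects of age and of the pool cannot be told apart, and the part of sex make-up was not tested. GLI3 ranged from 1359.9 CPM at E7 to 2055 CPM at E6.

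Of 18 guidance genes tested at E8, 5 were at least 2-fold higher and 4 lower, against 8.25% and 4.91% over all genes tested. The higher ones included RELN, the semaphorin receptor PLXNA4 (223 CPM at E6 and 1188 at E8) and the SLIT receptor ROBO2. The lower ones included EPHA5 (chromosome 4, 50557808 to 50759238), a receptor for A-type ephrins, at 2001, 539 and 939 CPM in the E6 wells and 325, 223 and 266 CPM in the E8 wells. Its E6 wells were far apart, yet all lay above those of E8, a direction that the naming rule had asked of each well. EFNB2 and PLXNA2 were lower as well, with log2 ratios of -1.40 and -1.46, but PLXNA2 was -0.95 without sublibrary 1. SLIT2 was higher at 1.08, and 0.51 without sublibrary 2.

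**Figure D5:**
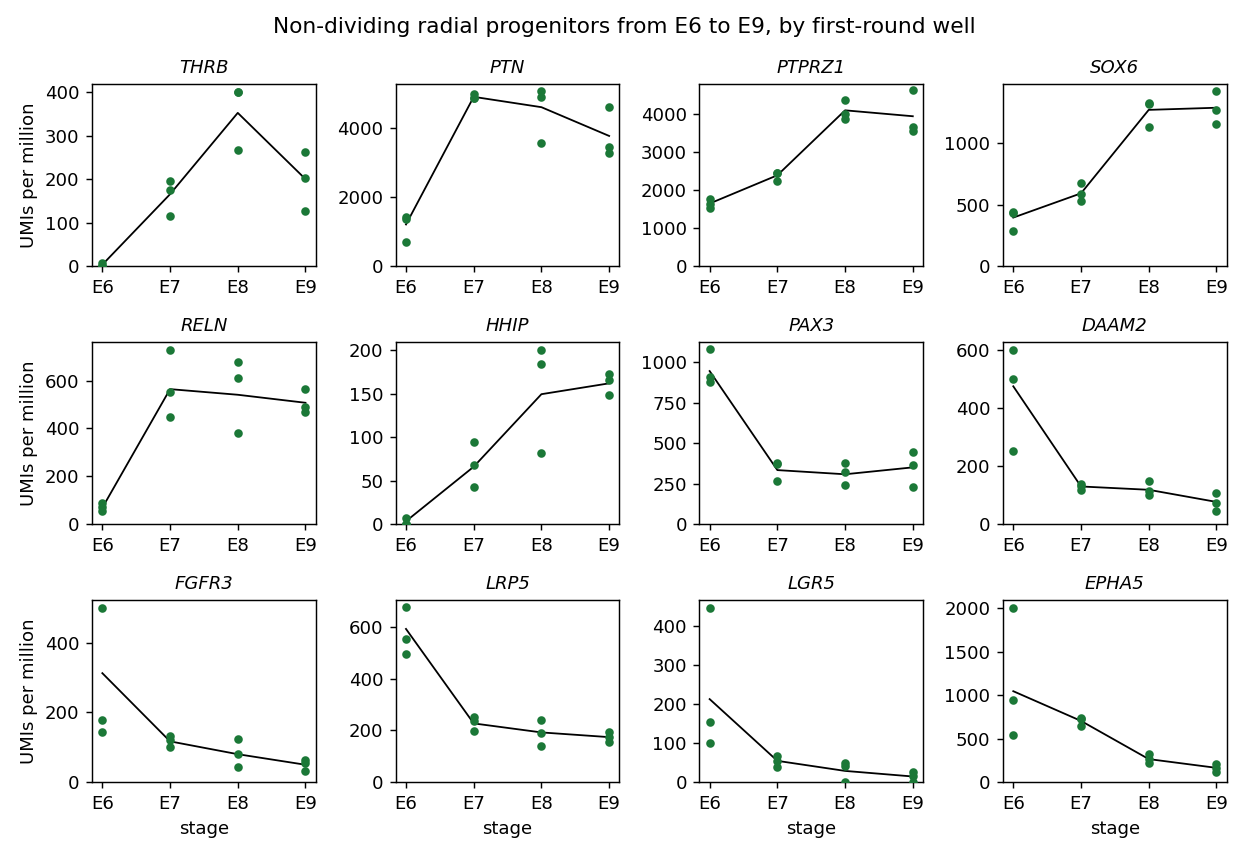
Levels of 12 genes in non-dividing radial progenitors from E6 to E9 in CPM, with axes from 0. Points are the 3 first-round wells of a stage and the line joins the pooled level. THRB is near 0 in every E6 well and between 128 and 400.2 CPM in the wells of E8 and E9, while the FGFR3 wells lie between 145 and 500.1 CPM at E6 and between 44.4 and 125 CPM at E8.

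Dividing progenitors of the same pools had like levels of many of these genes. In the dividing cells THRB stood at 7.9 CPM at E6 and 357 CPM at E8, SOX6 at 403 and 1407 CPM, FGFR3 at 269 and 78.3 CPM, and LRP5 at 401 and 188 CPM. The non-dividing values at those stages were 3.44 and 353, 395 and 1271, 313 and 80.4, and 591 and 192 CPM. NEBL was an exception, at 278 and 872 CPM in the dividing cells and 677 and 1036 CPM in the non-dividing ones.

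Some stage differences followed the neuron-rich cells. CSMD1 had a log2 ratio of -1.44 at E8 over E6 and -1.43 at E9 over E6, which turned to 0.84 and 1.08 without them. Without the second E6 well those ratios were -0.34 and -0.32. GRIK2 went from 0.07 and -0.17 to 1.33 and 2.03. THRB, PTN, SOX6, PAX3, FGFR3, LRP5 and DAAM2 kept their direction and stayed 2-fold apart at E8, for example FGFR3 at -2.04.

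Within the 77 cells, the spread of single genes was read as the ratio of variance to mean of UMIs per cell. Over 4961 genes with a mean of 0.05 UMIs or more, after thinning to 1500 UMIs, its median was 1.08, and counting alone gives 1. At such low counts the ratio stays near 1 even where levels differ between cells. The median therefore does not show that most genes vary little. Genes among those with the widest spread were CACNA2D1 (13.1), PCDH9 (12.7), ESRRG (11.4), NRXN3 (10.1) and CELF4 (10.0), followed by SLIT2, ROBO1, SORCS2, MYT1L, CACNA1C and GRIK2. CACNA2D1, a calcium channel subunit, was seen in 28.6% of the thinned cells and reached 28 UMIs in 1 of them. CELF4, an RNA-binding protein of neurons, stood at 5643 CPM in the neuron-rich members and 315 CPM in the rest, and NRXN3, a presynaptic adhesion protein, at 5806 and 859 CPM. SLIT2 did not follow that split, with 19 of its 144 UMIs in the neuron-rich cells.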

How the data were processed

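The deposited files hold raw UMI counts per gene and cell, made by the authors from both sublibraries, with a table of stage, well and transcript count for each cell. Per the submitters' processing notes, Cell Ranger, Seurat and the genome build GRCg7b were used. The sources used here do not give aligner settings or cell filters. In all 15190 cells the matrix sum equalled the deposited transcript count, and no per-sample column was left unmapped (0).

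The cells and gene lists were chosen with earlier results of these data known. Counts were summed over cells and scaled to CPM with Python 3.11.15, numpy 2.4.6, scipy 1.17.1 and pandas 2.3.3, and figures were drawn with matplotlib 3.10.9. Summing and thinning were tested on simulated data. Ratios were counted for genes with 100 or more UMIs in both sets together and called at 2-fold, with counting intervals from the exact binomial split. With 0 UMIs the ratio was taken against 3 UMIs, and for calls any count under 3 UMIs was raised to 3.

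Named genes were a fixed set of progenitor, neuronal and cycle genes, the 10 with the widest ratio each way in each comparison (20 CPM or more, same direction in both sublibraries and all wells, not on W or Z) and up to 4 each way from each list. Genes with the widest spread over cells were named by variance over mean after thinning to 1500 UMIs. PAX2, GAD2, LBX1, SLC32A1, HHIP, AXIN2, PAX5, NTRK2, GDF10, SORCS1, FOXP2, CACNA2D1, CELF4 and NRXN3 were given group levels after their values were seen. Of 661 listed symbols, 42, MKI67 among them, had no entry under that name. Some genes that the rule names are not reported here. Positions are from RefSeq on GRCg7b. Without strand information in the sources, antisense and overlapping genes cannot be told apart.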

Additional observations from a re-analysis of the deposited data

Results flagged for a closer look

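The contrast of non-dividing with dividing radial progenitors pointed one way at E6 and the other way at a later stage for 3 of the named genes, in both sublibraries of each stage. The differences between stages were not tested, and the genes were named for their E6 ratios. DAB1, the intracellular adaptor of the reelin receptors, had a log2 ratio of 1.13 at E6, -0.78 at E8 and -0.64 at E9, and its E6 value without the neuron-rich cells was 0.79. CSMD1 had 2.72 at E6 and -0.79 at E9, and its E6 value without the neuron-rich cells was 0.26. GPC6 had 1.5 at E6 and -0.53 at E9.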

How the results depend on the processing

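The share of 3.09% moved to 0.482% with 3 or more markers, 2.10% with the rule read from cells thinned to 1500 UMIs, 0.764% with no UMI of any listed mitosis gene and 7.84% with 2 UMIs of the markers in all, and ranged from 2.81 to 3.45% with 1 well or sublibrary left out. The 75.3% with a mitosis UMI became 100% with 3 markers, 49.4 and 40.3% after thinning to 1500 and 1000 UMIs and 51.9% without CKAP5, and ranged from 70.8 to 77.4%.

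The counts of genes 2-fold apart from the other E6 cells, from the dividing cells, and at E8 and E9 over E6 were 1275, 62, 209 and 215. They became 3023, 15, 45 and 43 with 3 markers, 2753, 404, 637 and 694 at 30 UMIs, 2840, 229, 488 and 486 at 1.5-fold and 3293, 101, 43 and 31 with no mitosis UMI. The thinned rule gave 20, 129 and 131 for the last 3, and sparing CKAP5 gave 81 and 76 at E8 and E9. Levels from thinned cells gave 841 and 20 for the first pair. Fewer cells mean fewer genes with enough UMIs. Leaving out 1 well or sublibrary gave 942 to 1152, 32 to 49, 94 to 205 and 89 to 204. The counts without the neuron-rich cells were 1465, 51, 198 and 212. At 30 UMIs, 75% of the calls against other E6 cells were higher in the members, instead of 46.0%. With no mitosis UMI it was 89.2%, with 3 markers 87.2%, and the dividing contrast gave 75% higher with the thinned rule instead of 48.4%. For calls, counts under 3 UMIs were raised to 3, so a gene with 0 UMIs in the members could be called higher. WNT3A was so called with 3 markers and with no mitosis UMI. At 30 UMIs the lower calls stayed at 688 while the higher ones went from 587 to 2065. The counts and shares against other E6 cells in these 3 settings therefore follow in part from that floor.

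Of 1991 recomputed ratios of 128 differences, 21 changed direction, and the cause was not tested. The settings of 30 UMIs and 1.5-fold, with 128 ratios each, alter no ratio and could turn none. Genes named for their ratio had to agree in direction over wells and sublibraries, so leaving 1 out could seldom turn them. The total is therefore no measure of how stable the ratios are. With 3 markers CDKN1B (-0.24) and LGR5 (-1.51) changed direction against other cells, and EBF1 (-0.33), GPC6 (-0.56) and LGR5 (-3.72) against dividing cells. The thinned rule turned RSPO3 (0.32), MYT1 (-0.23) and NKD1 (0.79). With no mitosis UMI it was GPC6 (-0.30), LGR5 (-0.84, and -0.77 sparing CKAP5) and SLIT2 (0.19) against dividing cells, SLIT2 (-0.59) at E8, and CSMD1 (1.74) and GPC6 (0.74) at E9. Thinned levels turned SPRY2 (-0.043), and leaving out 1 well or sublibrary gave MYT1 from -0.22 (no E6 well 3) to 1.79 against dividing cells. CSMD1 at E9 ranged from -2.73 to 0.18, the latter without sublibrary 2. Without neuron-rich cells CSMD1 became 0.84 at E8 and 1.08 at E9, and MYT1L, which is on the list that chose those cells, 0.20 at E9. A further 5 turns were against a set with 0 UMIs and gave no value.

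No paired analysis was possible because each stage is 1 pool, and sublibraries split the same cells. With 290963 UMIs in 77 cells, 1750 genes had the 100 UMIs in both sets together that a comparison with the dividing cells required, and differences in genes below that limit were not counted.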

Other observations

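Levels of some further genes in the 77 cells are given here. GDF10, a BMP-family ligand of Bergmann glia, gave 1 UMI at E6 and stood at 54.8 CPM at E7, 87.1 CPM at E8 and 64.9 CPM at E9. SORCS1, a sorting receptor, gave 185 UMIs in 35 of the 67 members that were not neuron-rich and 0 in the 10 that were. PAX6, a factor of granule cell precursors and cerebellar progenitors, gave 6 UMIs in 4 cells at E6, too few to compare groups of members. It stood at 71.5 CPM at E8. NFIB, a glial fate factor, stood at 931, 1042, 1774 and 1483 CPM from E6 to E9, short of 2-fold. NFIB lies on the Z chromosome, and E7 and E9 held more transcripts of the W genes named above than E6 and E8. FOXP2, a factor of young Purkinje neurons, gave 279 UMIs in 58 of the 67 members that were not neuron-rich, at 1125 CPM, close to the 1205 CPM of the dividing progenitors.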
